A study of Mus musculus with 10 samples.

Results

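The genes described here are 10 regulators and receptors of the primitive endoderm, taken by symbol from a short list and matched to their Ensembl IDs among 22713 gene IDs of the mRNA-sequencing tables. They are the transcription factors Gata6, Gata4, Sox17, Sox7, Foxa2 and Hnf4a, the receptor Pdgfra, and Dab2, Cubn and Amn, which act in endocytosis. All 10 were found in both tables. Their levels were low throughout, from a normalized read count (CPM, scaled to library size) of 0.0461 for Foxa2 to 14.0 for Dab2, so that a value often rests on few reads.

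The primitive endoderm is the layer of the late blastocyst that faces the cavity and later gives the visceral and parietal endoderm of the yolk sacs. Its precursors arise in the inner cell mass beside the pluripotent epiblast. FGF signalling through ERK favours Gata6 over Nanog in these cells, and Gata6 is followed by Gata4, Sox17 and Sox7. ES cells in serum with leukaemia inhibitory factor keep the epiblast state, with rare cells that turn on endoderm genes, and forced Gata6 or Gata4 is known to convert them to endoderm.

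Mouse ES cells of 2 lines were sequenced. Pontinf/f; CreER ES cells, derived from blastocysts, carry floxed Pontin alleles and a tamoxifen-activated Cre, and they gave 1 library without treatment (WT), 1 at 3 days after 4-hydroxy tamoxifen (OHT 3D) and 1 at 4 days (OHT 4D). The WT library therefore carries the floxed alleles and CreER as well, and it received no OHT. ZHBTc4 ES cells, whose Oct4 comes from a transgene that tetracycline shuts off, gave 1 library at 2 days after tetracycline (Tc 2D). They also gave 2 libraries at 4 days after infection with the pLKO control lentivirus (control) and 2 with pLKO shlinc1253 (knockdown), which targets the long noncoding RNA linc1253. ChIP-sequencing of untreated ZHBTc4 cells gave 1 library with a Pontin antibody and 1 with a GFP antibody as the background. ES cells in the study were grown either on mouse embryonic fibroblast feeders or without them, and which way was used for these libraries is not given in the sources used here.

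Reads on genes came to between 17187595 and 37951742 per mRNA library. Pontin, listed as Ruvbl1, went from 198.4 CPM in WT to 33.3 on day 3 of OHT and 50.9 on day 4, and it was at 85.0 at Tc 2D. Oct4, listed as Pou5f1, had 301.5 in WT and 21.1 at Tc 2D. linc1253 itself was not analysed here, so the knockdown was not checked on its target. A fibroblast list of 35 genes, of which 17 were over 1 CPM in WT, was highest after OHT. Its sum over all 35 genes was 919.6 CPM in WT, 1367.5 on day 3 of OHT, 1385.3 on day 4 and 621.1 at Tc 2D. Fn1, by far its most abundant gene, fell over the OHT libraries, with 793.8, 641.7 and 556.4 CPM. The sum without Fn1, a split chosen after the values were seen, was 125.8 CPM in WT but 725.8 on day 3 of OHT and 828.9 on day 4, and at Tc 2D it was 105.7. In the shRNA libraries the sum without Fn1 was 177.7 and 175.3 in the controls, 187.4 in knockdown replicate 1 and 287.1 in knockdown replicate 2, which was highest by that sum. With Fn1 it was not, at 1070.1 against 975.9 and 1074.0 in the controls and 886.3 in knockdown replicate 1. In bulk RNA, a change in the share of cells of a type and a change in RNA per cell cannot be told apart.

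Promoter sequences are shown for 4 of the genes. Dab2, Pdgfra and Cubn were called higher at both OHT time points, whereas Hnf4a was the only gene of the 10 called lower at either of them. Each sequence is the 250 bases before a RefSeq transcript start on GRCm38.p6, written 5′ to 3′ on the gene's own strand in lower case. Capitals mark the letters AGATAA or TGATAA, the core that GATA factors bind, searched on both strands. The Dab2 promoter is at chr15:6299539-6299788 (plus strand), that of Pdgfra at chr5:75152001-75152250 (plus strand), that of Cubn at chr2:13491877-13492126 (minus strand) and that of Hnf4a at chr2:163506607-163506856 (plus strand).
Dab2: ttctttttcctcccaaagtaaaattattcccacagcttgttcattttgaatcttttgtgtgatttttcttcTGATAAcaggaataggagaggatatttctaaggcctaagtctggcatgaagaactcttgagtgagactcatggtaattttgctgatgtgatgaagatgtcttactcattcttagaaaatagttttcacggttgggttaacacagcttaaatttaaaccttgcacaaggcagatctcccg
Pdgfra: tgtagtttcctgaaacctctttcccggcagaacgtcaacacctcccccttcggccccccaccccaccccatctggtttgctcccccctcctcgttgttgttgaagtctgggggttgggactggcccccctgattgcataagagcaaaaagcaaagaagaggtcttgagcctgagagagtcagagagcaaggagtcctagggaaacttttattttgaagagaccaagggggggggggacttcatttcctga
Cubn: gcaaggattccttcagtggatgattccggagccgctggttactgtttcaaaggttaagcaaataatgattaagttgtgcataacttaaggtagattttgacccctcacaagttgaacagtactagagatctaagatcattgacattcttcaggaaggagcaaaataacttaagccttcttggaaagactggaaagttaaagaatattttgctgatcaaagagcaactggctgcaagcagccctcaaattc
Hnf4a: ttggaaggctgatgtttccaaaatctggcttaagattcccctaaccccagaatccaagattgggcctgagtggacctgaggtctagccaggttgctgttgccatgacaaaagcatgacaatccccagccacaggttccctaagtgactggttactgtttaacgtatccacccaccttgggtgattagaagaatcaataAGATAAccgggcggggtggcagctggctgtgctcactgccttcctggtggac

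In the promoters shown, the match lies 179 bases before the Dab2 start and 52 bases before the Hnf4a start, and the Pdgfra and Cubn windows hold none. Dab2 and Hnf4a each have a second RefSeq promoter, which holds no match and has 60% G or C for Dab2 and 57.6% for Hnf4a. RefSeq promoters were matched for 6 of the 10 genes, with 10 promoters in all, and 3 of these held the GATA letters, the third being a promoter of Foxa2. Of all 32851 promoters of the same length, 16.6% held them. A match is a run of letters and not a measured site. The SOX letters ACAATG or ACAAAG were in 25.2% of all promoters, the octamer ATGCAAAT in 1.60%, and the forkhead letters TGTTTAC or TGTTTGC in 7.29%. None of the 4 windows shown holds any of these. The 4 windows differ in base composition, with 36.8% G or C in that of Dab2, 39.6% in Cubn, 51.2% in Hnf4a and 54.4% in Pdgfra, against a median of 52.4% over all promoters.

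**Figure D1:**
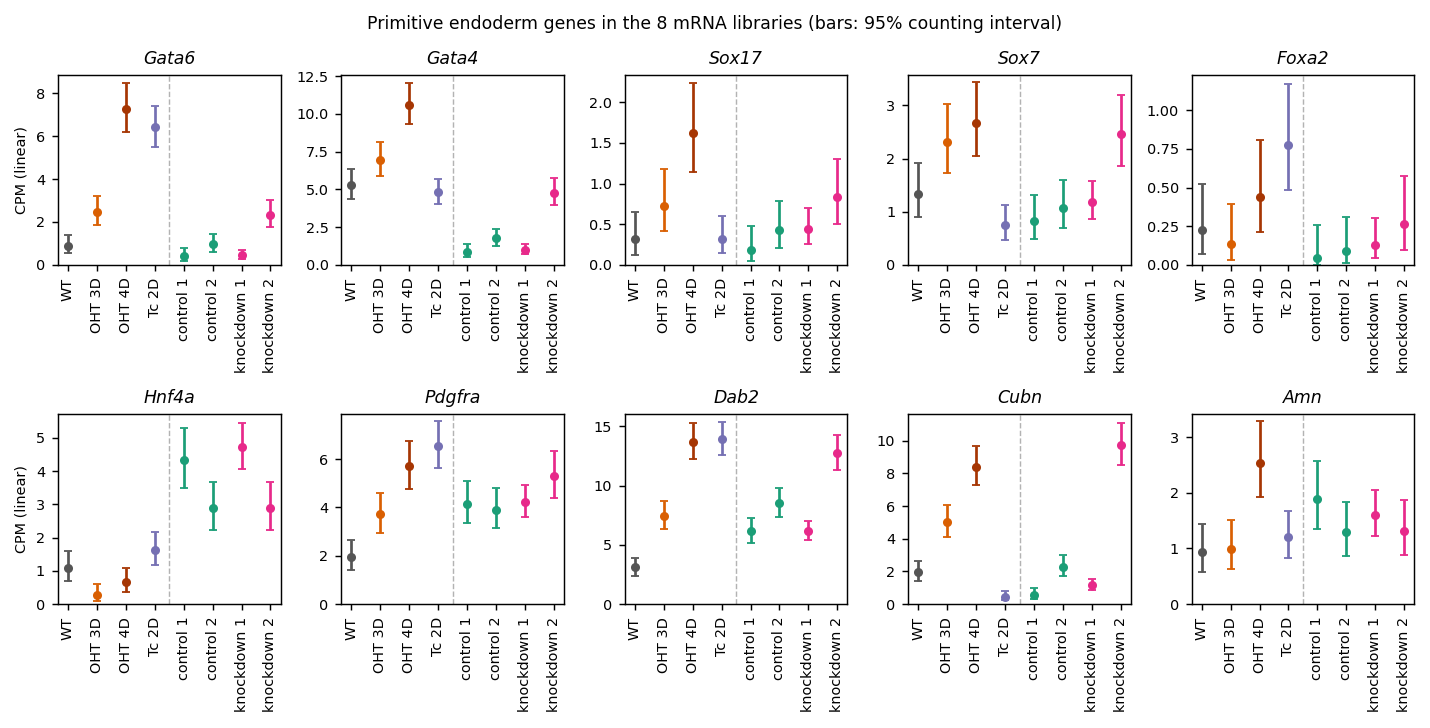
Each panel plots the linear CPM of a gene (y axis, from 0) in the 8 mRNA libraries (x axis), with bars for the 95% counting interval and a dashed line between the separately normalized tables. Gata6, Dab2 and Cubn climb from WT over OHT 3D to OHT 4D, Cubn is low at Tc 2D where Gata6 and Dab2 are high, and knockdown replicate 2 stands above the other shRNA libraries for Gata6, Gata4, Dab2 and Cubn.

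After Pontin depletion, 4 of the 10 genes were called higher at OHT 3D and 8 at OHT 4D. A call is an absolute log2-fold-change over 0.58 after adding 1 to the CPM, among genes over 1 CPM in at least 1 of the 4 libraries of the table. The genes called higher at OHT 3D were Gata6, Pdgfra, Dab2 and Cubn, and the same 4 were joined at OHT 4D by Gata4, Sox17, Sox7 and Amn. With 3 added to the CPM in place of 1, Gata6 and Pdgfra were not called at OHT 3D. Sox17, Sox7 and Amn were then not called at OHT 4D. Of all 13449 genes that passed the filter, 6.01% were called higher on day 3 and 6.48% on day 4. Hnf4a was called lower at OHT 3D, where 5.88% of all genes were, and no member was called lower at OHT 4D, where 8.89% were. Each condition is 1 library, so these differences have no replicate check, and the ratios below carry 95% counting intervals that leave out the spread between cultures.

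Over all 10 genes, Foxa2 below the filter included, the median log2-fold-change was 0.45 on day 3 and 0.94 on day 4, against -0.02 and -0.003 over all genes that passed. The level was higher on day 3 than in WT and higher again on day 4 for 8 of the 10 genes, all but Foxa2 and Hnf4a, whereas 16.6% of all genes showed that order. Sox17, Gata6 and Amn were under 1 CPM in WT and passed the filter through a treated library. Compared with OHT 3D, 5 genes were called higher at OHT 4D, namely Gata6, Sox17, Dab2, Cubn and Amn, and none lower, where 5.47% of all genes were called higher and 8.84% lower. Gata4 (log2-fold-change 0.55), Pdgfra (0.51), Hnf4a (0.38) and Sox7 (0.15) were not called there, and Foxa2 was below the filter. The 3 comparisons among these libraries share samples, so they are not independent of each other.

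Gata6, the GATA factor at the head of primitive endoderm specification, stood at 0.894 CPM in WT, rising to 2.44 on day 3 and 7.27 on day 4, from 20, 54 and 166 reads. The log2-fold-change was thus 0.86 on day 3 and 2.13 on day 4, the largest of the 10 on that day. The ratio of CPM to WT at OHT 4D was 8.13, with a counting interval of 5.10 to 13.7. Gata4, which acts beside Gata6 and after it, had 5.27, 6.92 and 10.6 CPM in the same order. On day 3 a log2-fold-change of 0.34 made no call, on day 4 a value of 0.89 did, and the ratio at OHT 4D was 2.01 (1.61 to 2.53).

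The SoxF factors were also counted with few reads. Sox17, which follows Gata6 in the primitive endoderm and is also a factor of definitive endoderm, went from 0.313 CPM in WT to 0.724 on day 3 and 1.62 on day 4. These values rest on 7, 16 and 37 reads, and the interval of the ratio at OHT 4D, 5.18, was accordingly wide at 2.28 to 13.8. Sox7, known from parietal endoderm, had 1.34, 2.31 and 2.67 CPM. The log2-fold-change of Sox7 came to 0.50 and then 0.65, so that it passed the threshold only at the later time, while the ratio between the 2 treated libraries was 1.16 (0.785 to 1.71).

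Foxa2 and Hnf4a, factors of the visceral endoderm, were counted with few reads. Foxa2, a forkhead factor of visceral and definitive endoderm, had 5 reads in WT, 3 on day 3 and 10 on day 4 and stayed below the filter. Hnf4a, the nuclear receptor that drives apolipoprotein and other secretory genes in visceral endoderm, was at 1.07 CPM in WT and fell to 0.271 on day 3, with 0.657 on day 4. Log2-fold-changes were -0.71 and -0.32, and with 3 added to the CPM in place of 1 the value at OHT 3D was -0.32, which is no call. From 24 reads in WT and 6 at OHT 3D, the ratio at OHT 3D was 0.253 (0.0846 to 0.635), and at OHT 4D its interval of 0.299 to 1.22 included 1.

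Pdgfra, the receptor whose presence on the surface marks primitive endoderm precursors, was at 1.97 CPM in WT, 3.71 on day 3 and 5.69 on day 4, with log2-fold-changes of 0.67 and then 1.17. In the same libraries, 3 of the 5 other genes of the PDGF pathway were called higher at OHT 3D (Pdgfrb, Pdgfd and Pdgfa) and 2 at OHT 4D, with none lower. Pdgfa, a ligand of Pdgfra, went from 18.2 CPM in WT to 28.9 on day 3 and 34.8 on day 4. Pdgfc, another of its ligands, had 22.3, 28.3 and 16.2 CPM, which is no call against WT and a lower call on day 4 against day 3, with a log2-fold-change of -0.77. Pdgfrb, which also stands on the fibroblast list, had 0.715, 2.90 and 4.47 CPM.

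Dab2, the clathrin adaptor that sorts endocytic receptors in primitive endoderm, stood at 3.08 CPM in WT, 7.47 on day 3 and 13.7 on day 4. With 69, 165 and 313 reads it had more reads over these 3 libraries than any other of the 10 genes. Relative to WT the ratio was 2.42 (1.82 to 3.25) on day 3 and 4.45 (3.42 to 5.86) on day 4. Cubn encodes cubilin, the large endocytic receptor of visceral endoderm, and had 1.97, 5.02 and 8.41 CPM, with a log2-fold-change of 1.02 and then 1.67. Amn encodes amnionless, the membrane partner that carries cubilin to the cell surface, and had 0.939, 0.995 and 2.54 CPM. Amn thus differed from WT only at OHT 4D, with a log2-fold-change of 0.87 against 0.04 at OHT 3D, whereas Cubn was already higher at OHT 3D. The genes that work with these receptors moved less, since none of 9 partners of the cubilin pathway was called at OHT 3D and 1, the motor Myo6, was called lower at OHT 4D.

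**Figure D2:**
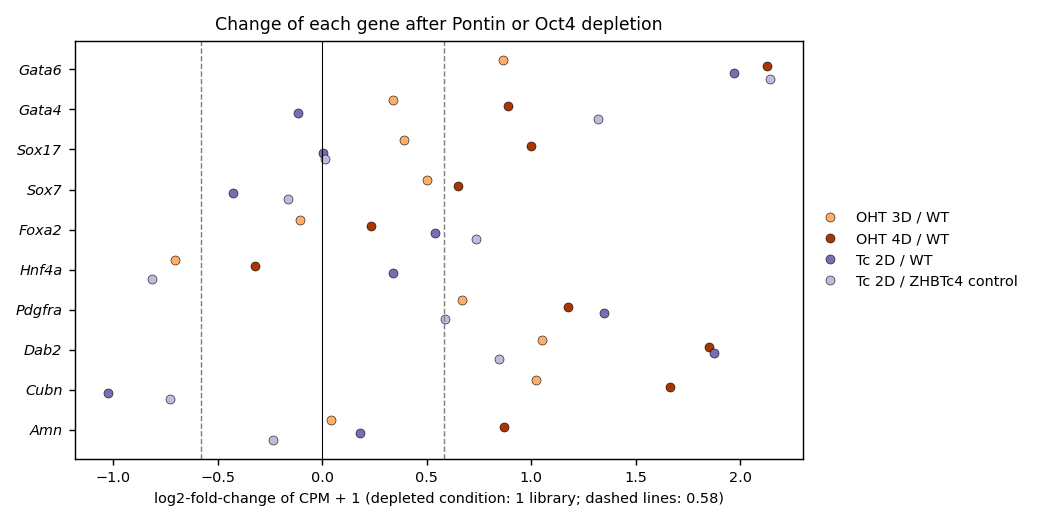
The x axis gives the log2-fold-change of CPM plus 1 of each gene (rows) for OHT 3D and OHT 4D against WT, and for Tc 2D against WT or against the mean of the ZHBTc4 control libraries; dashed lines mark 0.58 in either direction. At OHT 4D 8 genes lie to the right of the line, and at Tc 2D Gata6, Pdgfra and Dab2 do under both controls while Cubn lies to the left.

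Other gene groups moved in the same libraries. Of 32 further genes of extraembryonic endoderm, 25 passed the filter, and 9 were called higher and 1 lower at OHT 3D. At OHT 4D, 13 were called higher and none lower, with a median log2-fold-change of 0.88 over those that passed. Those that changed most at OHT 4D were Thbd, a surface regulator of coagulation (0.358 CPM in WT and 5.87 at OHT 4D), Srgn, a proteoglycan of secretory granules (0.760 and 7.80), and the basement membrane collagen Col4a2 (17.9 and 81.9). Of 9 genes used to mark mesendoderm and definitive endoderm, 4 passed, and the only one called higher at OHT 4D was T (Brachyury), at 0.358 CPM in WT and 2.23 at OHT 4D. The list of 15 FGF and ERK genes had 2 called higher and 1 lower at OHT 3D, then 1 higher and 2 lower at OHT 4D.

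Markers of other lineages also moved with the endoderm genes. Of 12 trophectoderm genes that passed the filter, 6 were called higher and 1 lower at OHT 3D and 8 higher and none lower at OHT 4D, led by the simple epithelial keratins Krt8 (19.8 CPM in WT and 154.7 at OHT 4D) and Krt18 (17.7 and 110.2), which endoderm uses too. Pluripotency genes changed little, with 2 of 18 called lower at OHT 3D and 1 higher and 1 lower at OHT 4D. The fibroblast list moved most, with 29 of the 32 genes that passed called higher at OHT 3D and 30 at OHT 4D, none lower, and medians of 2.22 and 1.92. Acta2, smooth muscle actin, went from 5.90 CPM in WT to 94.6 on day 3 and 111.9 on day 4, and the collagen gene Col1a1 at 4.20, 46.5 and 64.6. Of that list, Lum and Fap were at 0 in WT and at OHT 3D. Between OHT 3D and OHT 4D, 2 fibroblast genes were called higher and 2 lower with a median of 0.15, and the sum without Fn1 went from 725.8 to 828.9 CPM. Of the 10 primitive endoderm genes, 5 were called higher there and none lower, where 5.47% and 8.84% of all genes were. The part of fibroblast RNA in the levels of Pdgfra, Dab2 and the others was not tested.

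**Figure D3:**
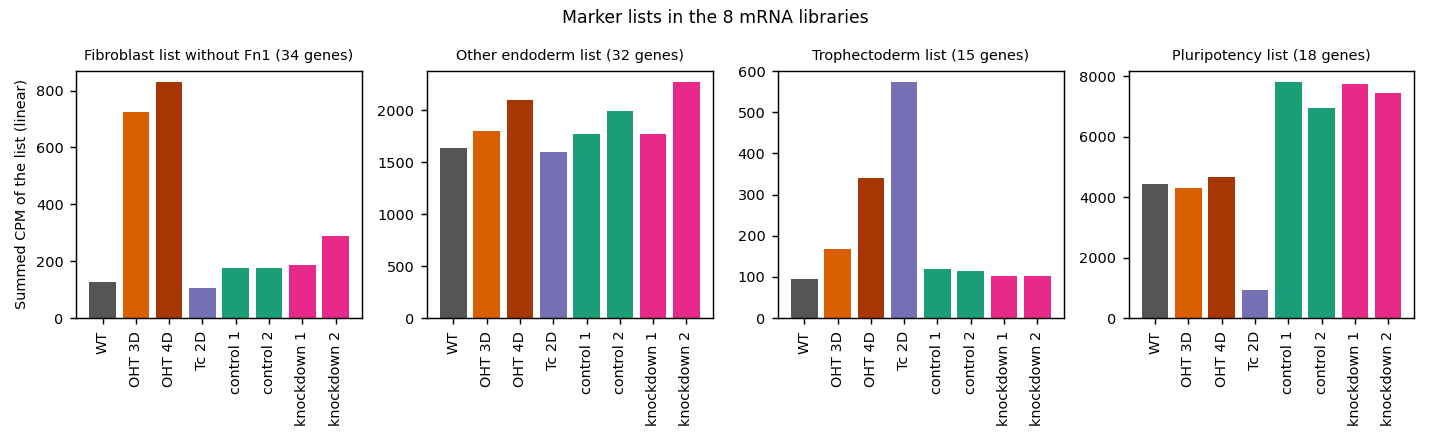
Bars give the summed linear CPM of 4 marker lists (y axis, from 0) in the 8 mRNA libraries (x axis). The fibroblast list without Fn1 goes from 125.8 in WT to 828.9 at OHT 4D and is at 105.7 at Tc 2D (with Fn1, not plotted, 919.6, 1385.3 and 621.1), the trophectoderm list is highest at Tc 2D, and the pluripotency list is lowest there.

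Oct4 depletion gave another pattern. Gata6, Pdgfra and Dab2 were called higher at Tc 2D than in WT, Cubn was called lower, and 5 genes were not called. Many genes changed in this comparison, with 23.9% of all genes called higher and 25.8% lower, so that 3 of 10 higher is near the share over all genes. Scaled by library totals instead of TMM, 35.4% were called higher and 16.4% lower, the median of all genes moved by 0.32 on the log2 scale, and Hnf4a was also called higher, while the other calls were as given. WT belongs to the other line, so line and Oct4 depletion cannot be told apart in this comparison.

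Gata6 had 6.41 CPM at Tc 2D from 182 reads, against 0.894 in WT, a ratio of 7.17 (4.51 to 12.0). Dab2 had 14.0 CPM against 3.08, a ratio of 4.52 (3.50 to 5.93), and Pdgfra 6.55 against 1.97, a ratio of 3.33 (2.39 to 4.74). For these 3 genes the Tc 2D level lay close to that at OHT 4D. Gata4 and Sox17 were nearer to WT, since Gata4 was at 4.79 CPM against 5.27 in WT and Sox17 at 0.317 against 0.313. Sox7 was at 0.740 against 1.34, a ratio of 0.552 (0.300 to 0.996) that made no call. Cubn was at 0.458 CPM, from 13 reads, and its log2-fold-change of -1.02 stands beside 1.67 at OHT 4D. With 3 added to the CPM in place of 1 it was -0.52, which is no call. Hnf4a (1.62 CPM) and Amn (1.20 CPM) had ratios to WT whose intervals included 1, and Foxa2, with 22 reads and 0.775 CPM, had its highest level of all libraries there.

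The 2 ZHBTc4 control libraries share the line but were infected and were normalized in another table. They were also sequenced on another instrument model, according to the paper. Set against their mean, Tc 2D had 4 genes called higher and 2 lower. Here 18.3% of all genes were called higher and 28.7% lower. Gata6 (log2-fold-change 2.14), Dab2 (0.85) and Pdgfra (0.59) were called again, the last just over the threshold, and Cubn was again lower at -0.73. Cubn had 0.458 CPM at Tc 2D, from 13 reads, and 0.554 (12 reads) and 2.28 CPM in the control libraries. Its lower call therefore rests on control replicate 2. Gata4 joined the genes called higher, with 1.32, since the control libraries held 0.876 and 1.76 CPM, below the 5.27 of WT. Hnf4a went the other way, with -0.81, from 4.34 and 2.88 CPM in the control libraries. Sox17 (0.01), Sox7 (-0.17) and Amn (-0.24) were not called, and Foxa2 was below the filter. On a TMM scale common to all 8 libraries the same 6 genes were called, while 24.8% of all genes were called higher and 22.2% lower.

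At Tc 2D the fibroblast list was mixed. Of 32 genes, 6 were called higher and 11 lower, where 23.9% and 25.8% of all genes were. The largest change was a rise, that of Pdgfrb from 0.715 CPM in WT to 25.1. Acta2, Postn, S100a4, Dcn and Lum were at 0, Lum in WT as well, and Col1a1 was at 1.34 CPM. Trophectoderm genes rose together in this library, with 11 of 12 called higher, none lower and a median log2-fold-change of 2.61. Hand1, a factor of trophoblast giant cells that other extraembryonic tissue also uses, went from 0.268 CPM in WT to 61.8, and Cdx2, the trophectoderm factor that Oct4 holds in check, from 0.0894 to 9.23. Of the pluripotency genes, 16 of 18 were called lower, and so were 10 of the 15 FGF and ERK genes while 2 were called higher. Among those lower were Fgf4 (275.6 CPM in WT and 7.08 at Tc 2D), the ligand that ES cells make, and the ERK target Spry4 (81.5 and 13.0).

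The endocytic genes were not called in the same direction at Tc 2D. Lrp2 encodes megalin, the receptor that works with cubilin, and had 27.0 CPM in WT and 175.6 at Tc 2D, while Cubn was lower. Of the 9 cubilin partners, 4 were called higher and 2 lower. Of the further extraembryonic endoderm genes, 9 of 25 were called higher and 2 lower, and the gene that changed most, Apoe, was lower, with 659.7 CPM in WT and 38.3 at Tc 2D.

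In fits to all 4 libraries without a replicate block, the knockdown of linc1253 gave no call for any of the 10 genes. The spread between the knockdown replicates was large. Limma fitted to log2 of CPM plus 1, with 2 libraries against 2 and Benjamini-Hochberg adjustment over 13407 genes, called 0 members and 0 genes in all, which is 0% of those tested, with a smallest adjusted p of 0.265. At an unadjusted p under 0.05, 496 genes were higher and 503 lower (7.45%), with 0 members among them. The quasi-likelihood test of edgeR on the recovered reads also called 0 genes, and DESeq2 called 50 (0.422%). A limma fit with the replicate number as a block, given below with the other alternatives, called Cubn, Gata4 and Sox7 higher. It called 933 genes higher and 1027 lower in all. Sox17 and Foxa2 were below the filter, so limma and edgeR tested 8 members. DESeq2 gave no adjusted p for 1560 genes, Gata6, Gata4, Sox7 and Amn among them, so it could have called only the other 4 members and called none of these. Nothing in the labels says that the replicates came from separate cultures, so these p-values measure the spread between libraries, which may be technical.

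The median log2-fold-change over the 8 tested genes was 0.33, against -0.001 over all genes. Cubn was at 0.554 and 2.28 CPM in the control libraries and at 1.16 and 9.73 in the knockdown libraries, so the groups overlap. Its log2-fold-change of 1.09 had a standard error of 0.74, with an adjusted p of 0.765 by limma. Gata4 was at 0.876 and 1.76 CPM against 0.979 and 4.78, with a log2-fold-change of 0.57 (standard error 0.49) and an adjusted p of 0.815 by limma. Gata6 was at 0.415 and 0.946 CPM against 0.438 and 2.32, with 0.40 (0.40) and 0.851 for the same quantities. For all 3 genes it is knockdown replicate 2 that is high, while knockdown replicate 1 lies between the control libraries.

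Sox7 and Pdgfra had no overlap between the groups. Sox7 was at 0.830 and 1.08 CPM in the control libraries and at 1.19 and 2.46 in the knockdown libraries, with a log2-fold-change of 0.50 (standard error 0.25) and an adjusted p of 0.707 by limma. Pdgfra was at 4.15 and 3.91 CPM against 4.23 and 5.31, with a log2-fold-change of 0.19. Sox17 and Foxa2, both below the filter, also did not overlap. Sox17 was at 0.185 and 0.430 against 0.438 and 0.833 CPM, from 4 to 19 reads. Foxa2 was at 0.0461 and 0.0860 against 0.129 and 0.263 CPM, from 1 to 6 reads. Among the 8 genes tested, both knockdown libraries lay above both control libraries for 2, Sox7 and Pdgfra, as for 18.8% of all genes tested. No overlap in either direction was shown by the same 2 of 8 and by 38% of all genes tested. Dab2 (6.14 and 8.52 against 6.16 and 12.7 CPM), Hnf4a (4.34 and 2.88 against 4.72 and 2.89) and Amn (1.89 and 1.29 against 1.60 and 1.32) overlapped.

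Within the groups, replicate 2 differed from replicate 1 in many of these genes. In the knockdown, Gata6, Gata4, Sox7, Dab2 and Cubn were past a log2-fold-change of 0.58 between the replicates, all upward in replicate 2, where 1.93% of all genes were and 0.671% were lower. Gata6 passed the filter of the shRNA libraries only through knockdown replicate 2, at 2.32 CPM. The ratio of replicate 2 to replicate 1 was 8.39 (6.07 to 11.8) for Cubn, 5.30 (3.02 to 9.77) for Gata6 and 4.88 (3.35 to 7.26) for Gata4. In the control, Cubn alone was past the threshold, with a ratio of 4.12 (2.17 to 8.47), where 1.93% of all genes were higher and 1.16% lower. Hnf4a went the other way in both groups, with ratios of 0.665 (0.478 to 0.919) in the control and 0.614 (0.456 to 0.817) in the knockdown. Knockdown replicate 2 was the highest shRNA library for 8 of the 10 genes and for 6 of the 8 that passed the filter, which 23% of all genes tested showed. Replicate 2 lay above replicate 1 in both groups for 7 of the 10 genes, for 5 of the 8 that passed the filter and for 35.6% of all genes tested.

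Compared by number, knockdown replicate 1 and control replicate 1 differed past the threshold in 0 of the 8 genes that passed the filter, where 1.29% of all genes were higher and 1.01% lower. Without the threshold, the median log2-fold-change was 0.05 over these 8 genes and -0.0002 over all genes that passed. Dab2 (0.005), Pdgfra (0.02) and Gata6 (0.02) hardly differed. Cubn had a ratio of 2.10 with a counting interval of 1.09 to 4.35, and the intervals of all other members included 1. Between knockdown replicate 2 and control replicate 2, Gata6, Gata4, Sox7 and Cubn were higher and none lower, where 1.36% and 0.828% of all genes were. Of these, Gata6 passed the filter only through knockdown replicate 2. Without knockdown replicate 2 the limma log2-fold-change was -0.21 for Gata6, -0.20 for Gata4 and -0.064 for Cubn. Without knockdown replicate 1 that of Cubn was 2.25 with an adjusted p of 0.027 by limma, and 0.104% of all genes were then called higher.

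Part of the fibroblast list again moved with them. Between the knockdown replicates, 17 of 30 fibroblast genes were called higher in replicate 2, none lower, and 13 were not called. Among those not called, Thy1 went from 33.6 CPM in replicate 1 to 26.9 in replicate 2 and Mmp2 from 39.6 to 30.8. Between the second replicates of knockdown and control 16 were called higher and none lower. Between the first replicates 1 was called higher and none lower. The control replicates differed too, with 8 of 30 called higher in replicate 2 and none lower, where 1.93% and 1.16% of all genes were. Acta2 was at 0.277 and 3.31 CPM in the control libraries and at 0.180 and 17.7 in the knockdown libraries, and Col1a1 at 5.67 and 6.24 against 5.18 and 12.5. Fap was at 0 in all 4 shRNA libraries. The part of this list in the values of Gata4, Gata6 and Cubn was not tested. Of the 22 further endoderm genes that passed, 3 were called higher and none lower between the second replicates of knockdown and control (Col4a2, Col4a1 and Srgn). Between the first replicates 3 of the 22 were called higher, Bmp2 among them, and 2 lower (Plat and Krt19). No FGF or ERK gene was called in either pair. Of 4 other PDGF pathway genes that passed, 2 (Pdgfa and Pdgfc) were called higher in each pair and none lower. Over all genes, 1.29% were called higher between the first replicates and 1.36% between the second.

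Some of these genes were at other levels in the undepleted cells of the 2 lines. Gata4 was at 5.27 CPM in WT of the Pontinf/f; CreER line and at 1.32 ± 0.627 (SD, n = 2) in the ZHBTc4 control libraries. Hnf4a went the other way, at 1.07 against 3.61 ± 1.03 (SD, n = 2), and Pdgfra and Dab2 were also higher in the control libraries, at 4.03 ± 0.168 and 7.33 ± 1.68 (SD, n = 2) against 1.97 and 3.08 in WT. Gata6 (0.894 against 0.681 ± 0.376, SD, n = 2) and Sox17 (0.313 against 0.307 ± 0.174, SD, n = 2) were within 1 SD of each other. Sox7 was at 1.34 in WT against 0.953 ± 0.173 and Cubn, also within 1 SD, at 1.97 against 1.42 ± 1.22 (SD, n = 2). Amn was at 0.939 against 1.59 ± 0.425 and Foxa2 at 0.224 against 0.0661 ± 0.0282 (SD, n = 2). The tables were normalized separately, the lines were treated differently and the libraries were sequenced on different instrument models, so these levels were set side by side without a test. Scaled per kilobase of exon, the medians over the 8 libraries ran from 1.22 CPM per kb for Gata4 and 1.09 for Dab2 down to 0.138 for Sox17 and 0.0758 for Foxa2. Cubn, whose transcript is the longest of the 10 by exon length, had a median of 0.180 CPM per kb.

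Over the 8 mRNA libraries the genes did not all vary together. As a description of 8 points that come from 2 lines and share libraries, Pearson's r of log2 CPM plus 1 was 0.97 between Cubn and Sox7, 0.94 between Dab2 and Pdgfra, 0.88 between Sox17 and Sox7 and 0.81 between Gata6 and Gata4. Pdgfra and Cubn had 0.12, and Hnf4a and Gata4 had -0.89. Among 13488 genes over 1 CPM in at least 2 libraries, the genes most like Gata6 were Elovl1 (0.97), Myd88 (0.96) and Sharpin (0.95). Those most like Sox17 were Sparc (0.97), a matrix protein on the list of further endoderm genes, Hs3st1 (0.95) and Gpnmb (0.94). Dab2 was most like Pdgfra, then Pkd2l2 (0.94) and Cmtm3 (0.91), and Pdgfra was most like Gpx8 (0.97), Endod1 (0.95) and Sox8 (0.94).

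Pontin ChIP signal at the 10 promoters was mixed. The window ran from 2.5 kb before each gene start to 500 b after it on NCBIM37. Reads were scaled by library size, with 40729076 reads in the Pontin library and 17185883 in the GFP library. Each gene had 1 window, at its outermost annotated start. The further RefSeq promoters of Dab2, Hnf4a and Foxa2 had no window of their own. The promoters of Gata6 and Sox7 had a log2 ratio of Pontin over GFP above 1, which is 2 of 10, and 14.5% of the 21186 promoters with reads in both libraries did. The median log2 ratio was 0.02 over the 10 promoters and 0.34 over all. Each antibody has 1 library, so there is no test, and since both mates of a fragment can be counted the intervals are too narrow.

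At Gata6 (window chr18:11050008-11053008, plus strand) 78 Pontin reads and 12 GFP reads gave a log2 ratio of 1.46, with a counting interval of 0.57 to 2.47. At Sox7 (chr14:64560011-64563011, plus strand) 78 and 14 reads gave 1.23 (0.40 to 2.17). Pdgfra (chr5:75545816-75548816, plus strand), with 71 and 15 reads, was at 0.998, just under the threshold, and Cubn (chr2:13413051-13416051, minus strand), with 56 and 14, was at 0.76. The lower bounds for Gata6, Sox7 and Pdgfra lay above 0, and that for Cubn at -0.11 did not. Dab2 (chr15:6247288-6250288, plus strand), called higher in all 3 depleted libraries, had the lowest ratio of the 10, at -0.46, from 43 and 25 reads. With a window of 1 kb on either side of the start its ratio was 0.26 and no longer the lowest, Cubn was at 1.62, and 3 of 10 promoters were above 1, against 26.4% of all. Gata4 (-0.27), Sox17 (-0.24), Hnf4a (-0.31), Amn (-0.10) and Foxa2 (0.14) had intervals that included 0. The Pontin reads per promoter ranged only from 43 to 78, whereas the GFP reads ranged from 12 to 36, and the 4 promoters with the fewest GFP reads had the 4 highest ratios.

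**Figure D4:**
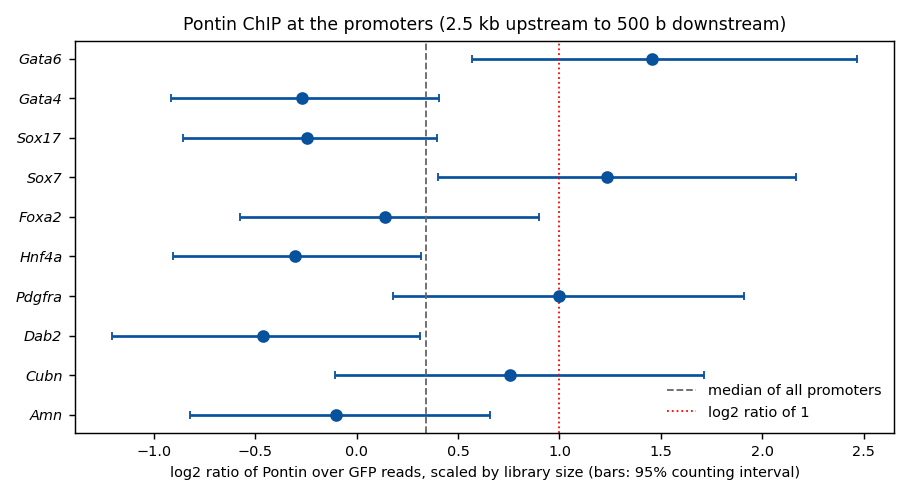
The x axis gives the log2 ratio of Pontin over GFP reads, scaled by library size, at 1 promoter window per gene (rows). Bars give the 95% counting interval, with a dashed line at the median of all promoters and a dotted line at 1. Gata6 and Sox7 lie above 1, Pdgfra on it, and Dab2 is lowest.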

How the data were processed

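mRNA of 8 mouse ES cell libraries and 2 ChIP libraries were analysed. The authors deposited CPM values: trimmed reads were aligned to NCBIM37 with TopHat (2 mismatches, up to 10 locations per read), counted on genes with HTSeq and TMM normalized in edgeR, separately for each table of 4 libraries, per the paper's methods and the submitters' processing notes. Whole reads were recovered from the CPM steps, within 0.01 read for 100% of values. The deposited ChIP files hold 1 line per Bowtie2-aligned read with its mapping quality score, at least 6 for Pontin and 5 for GFP.

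Symbols were matched for 22337 of 22713 IDs. A second ID with the symbol Dab2 had 0 reads in all 8 libraries and was left out, although it shares 1374 of the 7342 exon bases of Dab2. Gata6 shares 58 exon bases and Cubn 161 with antisense lincRNAs, and the RNA kit used does not keep strand. For Pontin and Oct4 depletion, log2-fold-changes of CPM plus 1 were called past 0.58 among genes over 1 CPM in at least 1 library of the table, with no p. For linc1253, limma 3.58.1 with trend was fitted (R 4.3.3), with edgeR 4.0.16 and DESeq2 1.42.0 on the recovered reads as alternatives, each tested on simulated data. Ratios have exact conditional binomial 95% intervals, and CPM values exact Poisson intervals. Both cover the counting of reads alone, and they are too narrow even for that where PCR copies of a molecule are counted again. ChIP reads were counted by their 5′ ends in promoters of 22367 protein-coding genes. Tables and plots were made with Python 3.11.15, numpy 2.4.6, pandas 2.3.3, scipy 1.17.1 and matplotlib 3.10.9.

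By rule, all 10 members were to be named in every comparison. Between single shRNA libraries, those not named were not called or were below the filter. From each other list at most the 3 genes with the largest absolute change per comparison were named by rule. Fn1, Col1a1, Thy1, Mmp2 and the genes at 0 were named beyond the rule or for their levels, after their values were seen. The members and lists were chosen with earlier results of these data known. Alternatives were other pseudocounts, filters, scalings, thresholds and controls, a replicate block, leaving out each shRNA library, and other ChIP windows, duplicates and scaling.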

Additional observations from a re-analysis of the deposited data

How the results depend on the processing

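With 1 library per depleted condition and few reads per gene, small changes could not be detected. With a pseudocount of 3 in place of 1, the number of the 10 genes called fell from 5 to 2 at OHT 3D (Dab2 and Cubn; 3.31% of all genes were called higher), from 8 to 5 at OHT 4D (3.69%) and from 5 to 2 between OHT 4D and OHT 3D (2.74%), and Cubn was no longer called lower at Tc 2D. With 0.5 it was 7 at OHT 3D (Sox17 and Sox7 added; 7.55% higher), 8 at OHT 4D (8.07%) and 7 between them (Gata4 and Hnf4a added; 7.03%). A log2-fold-change over 1 left 2, 4 and 1 of them (1.90%, 2.38% and 0.461% higher). A filter over 5 CPM, which 5 members passed, left 5 at OHT 4D (5.29%) and 3 between OHT 4D and OHT 3D (5.30%). Of those that passed it, Gata6, Pdgfra, Dab2 and Cubn were under 5 CPM in WT. They passed only through depleted libraries where they were high, so this filter favoured their calls against WT. Scaling the ChIP by the median ratio left 1 promoter above 1, that of Gata6 (6.17% of all promoters). With 1 kb on either side of the start there were 3, with Cubn added (26.4%), Foxa2 moved to 0.96 and Amn was lowest at -0.24. With 1 read per position and strand there were 2 (11.5%), and Gata4 moved to 0.46 and Hnf4a to 0.16. For Tc 2D, the ZHBTc4 control libraries in place of WT changed the calls of Gata4 and Hnf4a, and both are given with the comparison. Counting each untested fold change or promoter ratio once per alternative gave 284 values, of which 252 kept their call or lack of one, 32 did not, and 14 changed sign. Some of these outcomes were fixed in advance. Changing only the filter left each fold change and threshold as it was, and genes that a filter removed were not counted. The threshold over 1 could not change a sign.

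For linc1253, the replicate numbers are shared by the groups, and the labels do not say what they mark. Deviations from the group means of same-numbered libraries correlated at 0.673 over 13407 genes. A limma fit with the replicate block called 3 of the 10 genes higher, where the fit without it called 0: Cubn (adjusted p = 0.00114), Gata4 (0.0457) and Sox7 (0.04997). The same block fit called 933 genes higher and 1027 lower of those tested, against 0 without it, and DESeq2 called 23 higher and 27 lower. Leaving out each shRNA library in turn gave 0 to 1 members called. The log2-fold-changes then ranged from -0.21 to 1.00 for Gata6, -0.20 to 1.34 for Gata4, -0.20 to 0.74 for Dab2, -0.064 to 2.25 for Cubn, -0.22 to 0.33 for Hnf4a and -0.24 to 0.10 for Amn, so all 6 changed direction, and Sox7 and Pdgfra did not. Without knockdown replicate 1, limma called 17 genes, Cubn among them. A group left with 1 library was assumed to vary like the other. The cause of these shifts was not tested.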
